A study of Mus musculus with 4 samples.

Results

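The 33 chaperone and protein folding genes described here were taken by gene symbol from the 32285 genes of the deposited count tables, and all 33 were found. By the compartment and use of their products they were divided into 3 mitochondrial genes, 11 genes of the cytosolic HSP90 and HSP70 system, 8 subunits of the cytosolic chaperonin TRiC/CCT, 4 stress-induced genes and 7 genes of the endoplasmic reticulum (ER). They were followed in CD8 T cells of the lymph node that drains a tumour, sorted as positive for CD44 and CD90.1 from C57BL/6 mice at day 14 after tumour implantation. CD44 marks T cells that have met antigen, and CD90.1 is an allelic form of the T cell protein Thy1 that C57BL/6 mice do not carry. The C6M9 group carried low affinity GP33 and the M9 group high affinity GP33, GP33 being a viral peptide that the P14 T cell receptor recognises. The labels name neither the tumour line nor the origin of the CD90.1 cells, and no further treatment. Each group had 2 libraries, made with 10x Genomics 3′ chemistry from cells of 35 mice for C6M9 and 10 mice for M9. The labels do not say how the mice were divided, so p-values measure the spread between these libraries, which may be partly technical (n = 2 per group throughout).

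Of 11113 cell barcodes, 9923 T cells were kept. Transcripts were counted as unique molecular identifiers (UMIs, each standing for 1 captured transcript). The T cells numbered 2889 and 1734 in C6M9 replicates 1 and 2, and 4101 and 1199 in M9 replicates 1 and 2. The median UMI count per cell was 13993 and 21476 in C6M9, against 13205 and 20024 in M9, so replicate 2 was the deeper in both groups. Only 7 barcodes occurred in more than 1 library. Cd8b1 stood at 1104 and 1076 UMIs per 1000000 UMIs of the library (CPM, here without further scaling) in C6M9 and at 1006 and 977 in M9, against at most 3.17 for Cd4 and 0.50 for the macrophage gene Lyz2. The 16 B cell markers summed to between 353 and 385 CPM in C6M9 and between 321 and 329 in M9 after a B cell-like cluster had been left out.

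Chaperones bind proteins that are not yet folded or have lost their fold. In the cytosol HSP70 proteins hold short unfolded stretches with the help of J-domain partners and hand clients on to HSP90, while the ring-shaped TRiC/CCT chamber folds actin, tubulin and other large proteins. HSP60 and HSP10 form the matching chamber of the mitochondrial matrix, and the ER has its own HSP70, HSP90, lectin chaperones and disulphide isomerases for secreted and membrane proteins. T cells that have been activated grow and divide fast and make large amounts of protein, and heat shock factors and the unfolded protein response raise separate sets of these genes when unfolded proteins accumulate.

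Some promoters of these genes carry matches to stress response motifs. The windows below show them for the mitochondrial pair, an inducible HSP70 gene and the ER HSP70 gene. RefSeq (GRCm38.p6) gave promoter windows, 250 bases before to 50 after a start site, for 28 of the 33 genes. The first motif was the heat shock element in 3 units, GAANNTTCNNGAA or TTCNNGAANNTTC on either strand, which is bound by heat shock factors. It lay in 0.603% of all promoter windows, and among these genes in windows of Hspd1, Hspe1 and Hsph1. The 2-unit forms GAANNTTC and TTCNNGAA, which every 3-unit match also contains, lay in 15.1% of all windows and in windows of 10 of these genes, Hspa1a and Hspa1b included. The ER stress response element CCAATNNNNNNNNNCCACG lay in 0.119% of all windows and in those of 5 of the 7 ER genes, Hspa5, Hsp90b1, Calr, Canx and Pdia6. The 250 bases before the start sites of Hspe1 (chr1:55087898-55088147, plus strand), Hspa1b (chr17:34959239-34959488, minus strand) and Hspa5 (chr2:34771840-34772089, plus strand) are shown with the motifs in capitals.
Hspe1: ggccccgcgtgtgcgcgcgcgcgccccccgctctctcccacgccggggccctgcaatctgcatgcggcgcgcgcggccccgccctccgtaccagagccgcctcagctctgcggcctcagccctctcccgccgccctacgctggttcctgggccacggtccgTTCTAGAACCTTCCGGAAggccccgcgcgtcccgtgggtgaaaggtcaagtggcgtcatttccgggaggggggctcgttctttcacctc
Hspa1b: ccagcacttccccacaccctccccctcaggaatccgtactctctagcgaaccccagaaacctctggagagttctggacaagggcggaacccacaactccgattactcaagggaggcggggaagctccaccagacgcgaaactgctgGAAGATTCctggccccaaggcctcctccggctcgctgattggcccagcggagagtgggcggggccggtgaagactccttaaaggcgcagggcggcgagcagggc
Hspa5: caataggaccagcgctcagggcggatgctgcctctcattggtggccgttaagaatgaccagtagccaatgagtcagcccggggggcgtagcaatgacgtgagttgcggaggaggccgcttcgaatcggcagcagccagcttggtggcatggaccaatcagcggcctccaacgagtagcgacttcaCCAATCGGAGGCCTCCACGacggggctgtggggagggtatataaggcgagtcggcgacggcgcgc
In the Hspe1 window the capitals are 18 unbroken bases made of overlapping 3-unit matches; in Hspa1b they are a 2-unit match and in Hspa5 the ER element. Hspd1 starts 216 bases from Hspe1 on the other strand, so that both genes share these bases. The windows of Hspa1a and Hspa1b are identical at 296 of 300 positions, and their transcripts are near-identical copies, so UMIs may be split between these genes. A motif match is a description of the letters and not of binding in these cells.

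Over all T cells the list medians of the log2 difference were 0.36 for the stress-induced, 0.24 for the cytosolic, 0.22 for the TRiC/CCT, 0.14 for the mitochondrial and 0.04 for the ER members, each towards C6M9, and 1 gene passed the test. UMIs were summed per library and scaled with TMM factors to CPM, and edgeR's quasi-likelihood test over 13654 genes gave each difference as C6M9 minus M9, with a call at a Benjamini-Hochberg adjusted p under 0.05. Of the 33 members 1 was called higher and 0 lower, against a background of 1.59% of all genes called higher and 4.04% called lower. At an unadjusted p under 0.05 there were 14 higher and 0 lower members, against 10.5% of genes higher and 13.4% lower. In 25 of 33 members both C6M9 libraries lay above both M9 libraries and in 0 below, where 26.1% of genes lay above and 29.6% below. The members' median log2 difference was 0.20, beside -0.02 over all genes.

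The called member was Cct6a, which encodes a subunit of the TRiC/CCT ring. It stood at 220 and 216 CPM in C6M9 and at 168 and 173 CPM in M9. The groups did not overlap, and the log2 difference was 0.36 ± 0.08 (SE; adjusted p = 0.0468, edgeR). Without C6M9 replicate 1 its difference was 0.34 with an adjusted p of 0.351, and without C6M9 replicate 2 it was 0.38 with an adjusted p of 0.206. Without the cycling-like cells described below it was 0.53. The other 7 subunits, Cct2, Cct3, Cct4, Cct5, Cct7, Cct8 and Tcp1, had log2 differences between 0.15 and 0.26, none called, and each was higher in both C6M9 libraries.

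Hspd1 encodes HSP60, the mitochondrial chamber, and Hspe1 its lid HSP10. Hspd1 stood at 312 and 270 CPM in C6M9 and at 242 and 253 CPM in M9, a log2 difference of 0.24 ± 0.10 (SE; adjusted p = 0.201, edgeR). Hspe1 had 437 and 454 CPM in C6M9 and 374 and 435 CPM in M9. Hspa9, the mitochondrial HSP70 that pulls imported proteins into the matrix, had 94.2 and 86.9 CPM in C6M9 and 83.6 and 85.2 CPM in M9. All 3 were higher in both C6M9 libraries, by margins that did not pass the test.

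In the cytosolic system Hsp90aa1, the inducible HSP90, had 809 and 767 CPM in C6M9 against 672 and 655 CPM in M9. Hsp90ab1, the constitutive HSP90, had 2606 and 2302 CPM in C6M9 against 2255 and 2221 CPM in M9. Hspa8, the constitutive HSP70, had 1624 and 1713 CPM in C6M9 against 1471 and 1238 CPM in M9. None of these 3 was called (adjusted p = 0.171, 0.531 and 0.188 in that order, edgeR). The cyclophilin gene Ppia, whose product turns proline bonds, had 3382 and 3079 CPM in C6M9 against 2741 and 2555 CPM in M9, and was not called either. The J-domain genes Dnaja1 and Dnaja2 and the HSP90 partners Stip1, Ahsa1 and Fkbp4, which load, activate or accompany HSP90, differed by 0.16 to 0.29 on the log2 scale. Hspa14, a ribosome-associated HSP70 relative, differed by 0.25, and the exchange factor gene Hspa4 by 0.02 with overlapping groups. Several of these genes have processed pseudogenes in the genome, so that the counting may have left out or moved some of their UMIs.

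The ER list had the median nearest to 0, at 0.04 on the log2 scale. Hspa5, which encodes the ER HSP70 BiP, had 321 and 320 CPM in C6M9 against 370 and 286 CPM in M9, a log2 difference of -0.04 ± 0.13. The C6M9 values lay between the M9 values. Pdia4, a disulphide isomerase gene, differed by -0.01, and Pdia6, Calr and Canx, of which the last 2 encode the lectin chaperones calreticulin and calnexin, by 0.03 to 0.04. Hsp90b1, the ER HSP90, and Pdia3, the isomerase that works with the lectin chaperones, differed by 0.14 and 0.13, both higher in both C6M9 libraries and neither called.

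The stress-induced genes had the highest list median, and none was called. Hspa1a, an inducible HSP70 gene, had 24.8 and 36.1 CPM in C6M9 against 21.1 and 24.1 CPM in M9, a log2 difference of 0.43 ± 0.17 (SE; adjusted p = 0.175, edgeR). Its near-copy Hspa1b had 37.1 and 61.6 CPM in C6M9 against 29.9 and 44.4 CPM in M9, a difference of 0.41 ± 0.25 with overlapping groups. Hsph1 had 60.4 and 55.9 CPM in C6M9 against 49.9 and 47.6 CPM in M9, a difference of 0.25 ± 0.08 without overlap. Dnajb1 had 53.1 and 64.3 CPM in C6M9 against 55.8 and 39.4 CPM in M9, a difference of 0.30 ± 0.16 with overlap.

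**Figure D1:**
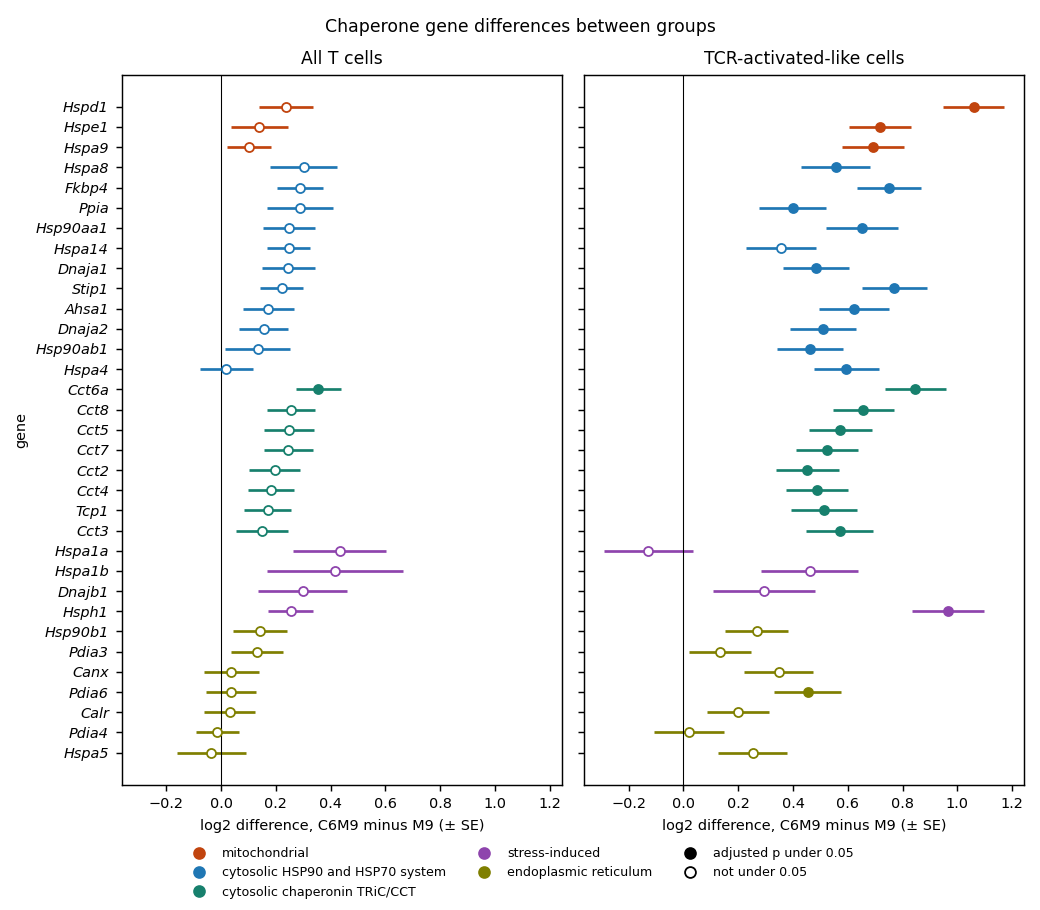
Log2 difference of C6M9 minus M9 (x axis, ± SE) for each of the 33 genes (y axis), over all T cells on the left and in TCR-activated-like cells on the right; colours mark the lists and filled points an adjusted p under 0.05 (edgeR, 2 libraries per group). On the left only Cct6a is filled, and on the right 23 genes are.

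These sums mix cell states whose shares differed between the groups, and a sum does not separate the level per cell from the mix. Clustering without any of the chaperone genes gave 6 classes with at least 50 cells in every library. They were named from marker genes as TCR-activated-like (Tnfrsf4, Cd83, Egr3), cycling-like (histone and mitosis genes), memory-like (Il7r, S1pr1), effector-like (Klre1, Klrc2) and interferon-like (Ifit3, Rsad2). The 1 unnamed cluster among them, cluster 2, was led by Kcnc1 and Gzmk. The effector-like name rests on killer lectin receptor genes and Zeb2, and 7 of 14 effector markers were seen in at least 25% of its cells. Gzma and Gzmb led another cluster, cluster 8. It had 12 cells in M9 replicate 2, so it was not tested as a class but stayed in the sums over all T cells. TCR-activated-like cells made up 3.39% and 5.71% of T cells in C6M9, against 27.4% and 20.9% in M9. Cycling-like cells made up 23.4% and 24.05% in C6M9, against 13.3% and 17.7% in M9, and memory-like cells 44.8% and 40.8% in C6M9, against 7.27% and 14.3% in M9.

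Across classes most members shared 1 pattern, given here as a description because the classes were made from the same cells. In 30 of 33 genes the TCR-activated-like and cycling-like classes had the highest mean CPM over the 4 libraries, all class sums being on 1 TMM scale. The 3 exceptions were Hspa1a, Hspa1b and Dnajb1. In 19 genes all 8 library sums of these classes lay above all 16 sums of the other classes. Neither count was taken over all genes, so whether the pattern is particular to chaperone genes was not tested. The contrast was widest for the mitochondrial genes, whose mean level in the TCR-activated-like and cycling-like classes was 1.97 to 4.08 times that in the other 4 classes. It was 1.20 to 2.85 times for the cytosolic system, 1.55 to 2.23 times for TRiC/CCT and 1.44 to 2.43 times for the ER genes. Of the stress-induced genes, whose median was 0.840 times, Hspa1a and Hspa1b stood at 0.645 and 0.653 times, Dnajb1 at 1.03 times and Hsph1 at 1.91 times.

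Hspd1 averaged 426 CPM in TCR-activated-like and 389 CPM in cycling-like sums, then 114 in memory-like, 102 in interferon-like, 95.6 in cluster 2 and 89.1 in effector-like sums. The ranges over libraries of the last 4 classes overlapped between neighbours, from 78.5 to 124 CPM in all, while the first 2 spanned 263 to 583 CPM and 322 to 444 CPM. Hsp90b1, like most members, had its highest mean in cycling-like cells, with 377 to 477 CPM in cycling-like sums and 190 to 259 CPM in TCR-activated-like sums. Hspa1a had its lowest mean, 15.3 CPM, in cycling-like cells and its highest, 39.3 CPM, in cluster 2, with library ranges of 9.15 to 26.3 and 26.5 to 49.1 CPM. Cycling-like cells had medians of 31013 to 48634 UMIs, against 10358 to 18831 in cluster 2, memory-like, interferon-like and effector-like cells, and the part of this depth in the levels was not tested.

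**Figure D2:**
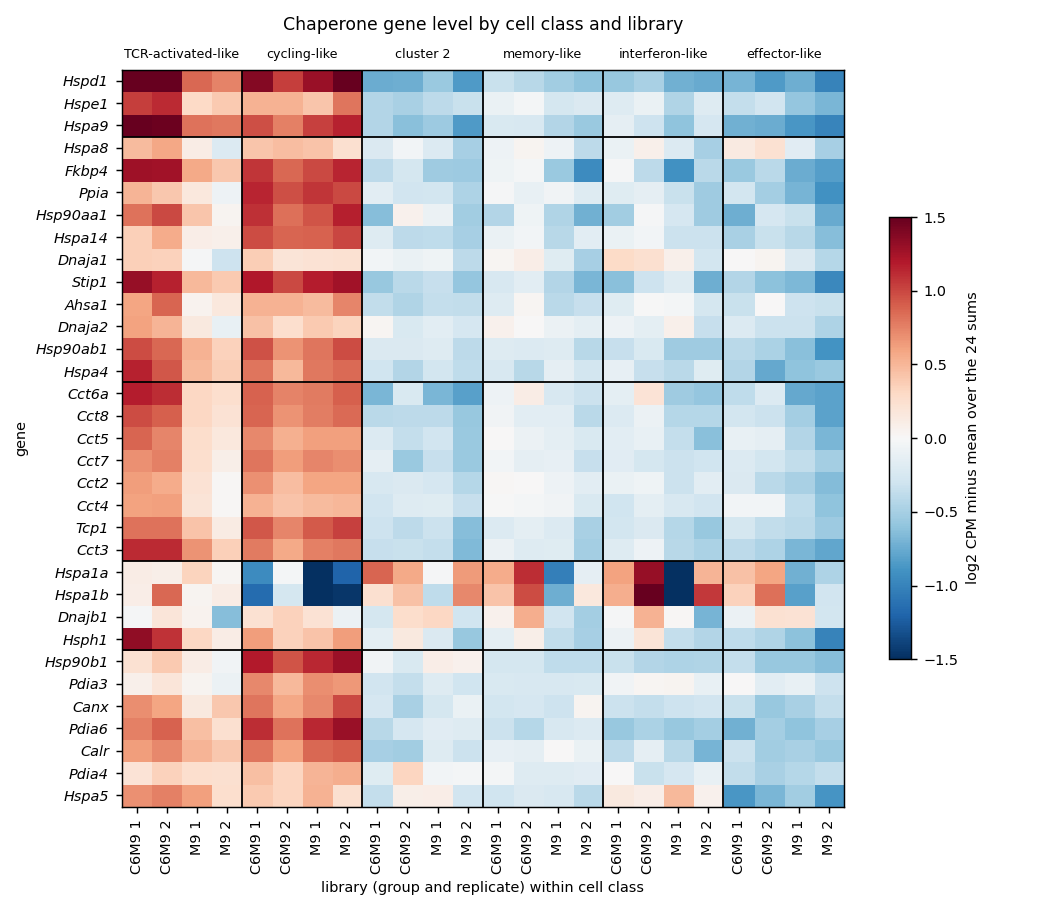
Log2 CPM of each gene (rows, lists separated by lines) in each of the 24 class and library sums (columns), as the difference from the gene's mean over the sums. Values past either end of the colour bar take its end colour. The TCR-activated-like and cycling-like columns are mostly red, these classes having the highest means in 30 of the 33 genes, while Hspa1a and Hspa1b are lowest in cycling-like cells.

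Within TCR-activated-like cells most of the chaperone genes outside the ER and stress-induced lists rose in C6M9. The same test on the sums of this class called 23 of 33 members higher and 0 lower, against a background of 7.51% higher and 5.57% lower among 10178 genes. Without C6M9 replicate 1 the count was 10 of 33, and with chaperone genes left in the clustering it was 5. In 29 members both C6M9 libraries lay above both M9 libraries and in 0 below, where 27.6% of genes lay above and 29.8% below, and 27 members had an unadjusted p under 0.05 on the higher side and 0 on the lower, where 14.4% and 13.2% of genes did. The called members were all 3 mitochondrial genes, 10 of 11 genes of the cytosolic system, all 8 TRiC/CCT subunits, 1 of 4 stress-induced genes and 1 of 7 ER genes. Their medians on the log2 scale were 0.72 for the mitochondrial list, 0.56 for the cytosolic system, 0.55 for TRiC/CCT, 0.38 for the stress-induced list and 0.25 for the ER list, beside -0.01 over all genes of the class. The C6M9 sums rest on 98 and 99 cells, and the M9 sums on 1125 and 250 cells. With chaperone genes left in the clustering the class was matched to clusters of 633 and 1043 cells. Of these 92.3% and 61.8% were in the class used here, so the 5 calls of that setting rest on a different set of cells. Median UMI counts per cell were 19136 and 24557 in C6M9 and 15173 and 24084 in M9.

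Hspd1 had the largest difference, with 582 and 586 CPM in C6M9 against 288 and 271 CPM in M9, a log2 difference of 1.06 ± 0.11 (SE; adjusted p = 7.49e-05, edgeR). Hspe1, which shares its promoter, had 747 and 783 CPM in C6M9 against 447 and 484 CPM in M9, a difference of 0.72 ± 0.11. Hspa9 had 181 and 168 CPM in C6M9 against 107 and 108 CPM in M9. In each of the 3 genes the gap between groups was wider than the spread within them.

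Among the cytosolic genes Stip1, the adaptor that joins HSP70 to HSP90, had 129 and 116 CPM in C6M9 against 73.0 and 69.8 CPM in M9, a log2 difference of 0.77 ± 0.12. Fkbp4, an HSP90-bound prolyl isomerase, had 152 and 150 CPM in C6M9 against 93.9 and 85.3 CPM in M9. Hsp90aa1 had 896 and 1001 CPM in C6M9 against 675 and 532 CPM in M9. The remaining called genes of this list, Hsp90ab1, Hspa8, Hspa4, Dnaja1, Dnaja2, Ahsa1 and Ppia, differed by 0.40 to 0.62. Hspa14 missed the threshold at 0.36 ± 0.13 (adjusted p = 0.0797, edgeR), with both C6M9 libraries above both M9 libraries.

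Cct6a again led the TRiC/CCT subunits, with 335 and 318 CPM in C6M9 against 183 and 180 CPM in M9, a log2 difference of 0.85 ± 0.11 (SE; adjusted p = 2.91e-04, edgeR). The other 7 subunits rose by 0.45 to 0.66 on the log2 scale. Of the stress-induced genes Hsph1, which encodes the HSP110 exchange factor, had 114 and 94.8 CPM in C6M9 against 55.7 and 49.7 CPM in M9, a difference of 0.97 ± 0.13. Hspa1a, Hspa1b and Dnajb1 differed by -0.13, 0.46 and 0.30, with overlapping groups and no call. In the ER list Pdia6 was called at 0.45 ± 0.12, with 122 and 133 CPM in C6M9 against 99.0 and 86.9 CPM in M9, while Hspa5, Hsp90b1, Pdia3, Pdia4, Calr and Canx, at 0.02 to 0.35, were not.

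This class was not uniform, and its make-up moved with the group. In a second clustering, made with doublets kept and chaperone genes again left out, it fell mainly into a sub-cluster led by Xcl1, Srm and Tnfrsf9 and another led by Tnfrsf4, Tiam1 and Egr3. The Xcl1-led sub-cluster held 51.0% and 52.5% of the class in C6M9, against 21.3% and 20.8% in M9. The Tnfrsf4-led sub-cluster held 32.7% and 25.3% in C6M9, against 68.1% and 66.4% in M9. Mean levels over the 4 libraries were higher in the Xcl1-led than in the Tnfrsf4-led cells by 2.40 to 5.35 times for the mitochondrial genes, 1.29 to 3.01 times for the cytosolic system, 1.63 to 2.79 times for TRiC/CCT and 1.15 to 1.72 times for the ER genes. Of the stress-induced genes Hsph1 was 2.43 times as high in the Xcl1-led cells, and Dnajb1, Hspa1b and Hspa1a stood at 1.06, 0.955 and 0.746 times.

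Tested inside each sub-cluster, a comparison added after the data had been seen, 0 of 33 members were called in either. The background was 1.65% of genes higher and 1.6% lower in the Xcl1-led cells, and 0.12% higher and 0.0327% lower in the Tnfrsf4-led cells. At an unadjusted p under 0.05 there were 4 and 6 higher members and no lower one, and the medians on the log2 scale were 0.10 and 0.19. Hspd1 had 800 and 793 CPM in C6M9 against 715 and 693 CPM in M9 among Xcl1-led cells, a difference of 0.18 ± 0.12. Among Tnfrsf4-led cells it had 157 and 124 CPM in C6M9 against 145 and 135 CPM in M9, a difference of -0.01 ± 0.16. Hspd1 thus differed by less within either sub-cluster than over the class as a whole. Cct6a differed by 0.11 ± 0.13 and 0.50 ± 0.16 in these sub-clusters, in that order, and Hsph1 by 0.45 ± 0.15 and 0.47 ± 0.22. The C6M9 sums rest on 50 and 52 Xcl1-led cells and on 32 and 25 Tnfrsf4-led cells, and what size of difference could be called from so few cells was not tested.

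**Figure D3:**
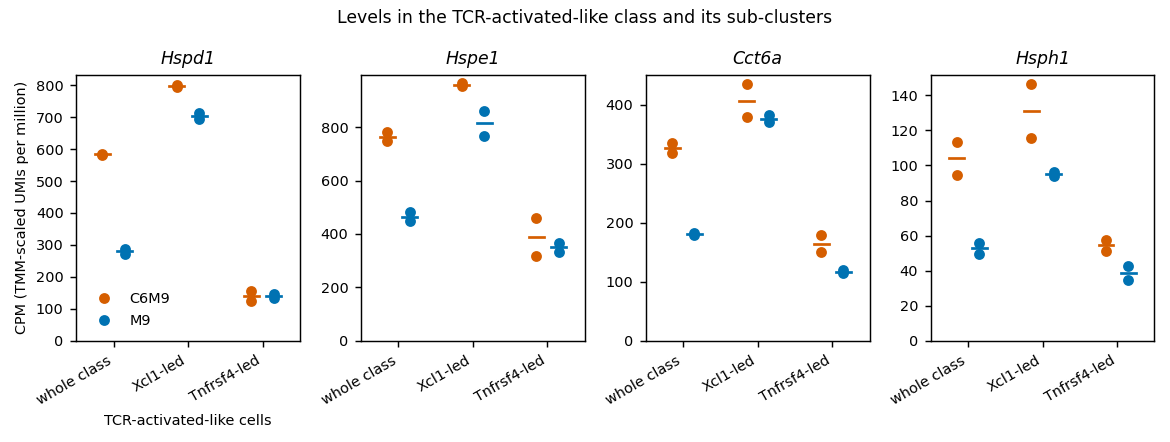
CPM (y axis, from 0) of Hspd1, Hspe1, Cct6a and Hsph1 in the whole TCR-activated-like class and in its Xcl1-led and Tnfrsf4-led sub-clusters; points are libraries and lines their means, with C6M9 left of M9. For Hspd1 the groups stand at 584 and 280 CPM on average in the whole class, and at 797 and 704 CPM among Xcl1-led cells.

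In the other 5 classes the calls were Hspa1a and Hspa1b in effector-like cells, where 0.268% of genes were called higher, and Cct6a in interferon-like cells, where 0.283% were. Cct6a had 129 and 168 CPM in C6M9 against 101 and 98.2 CPM in M9 there, a log2 difference of 0.57 ± 0.14 (SE; adjusted p = 0.0439, edgeR). Without C6M9 replicate 2 it was 0.38 with an adjusted p of 0.691, and without M9 replicate 2 it was 0.55 with an adjusted p of 0.0577. No member was called in cluster 2, cycling-like or memory-like cells, where 0.111%, 0.417% and 0.0368% of genes were called higher and 0.101%, 0.4% and 0.165% lower. In effector-like and interferon-like cells 0.495% and 0.769% of genes were called lower, and 0 members.

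Below the threshold the classes still differed in how many members leaned towards C6M9. In effector-like cells both C6M9 libraries lay above both M9 libraries in 20 members and below in 0 (22.3% and 22.8% of genes), and 12 members had an unadjusted p under 0.05 on the higher side and 0 on the lower (6.6% and 6.95% of genes). In interferon-like cells 16 members lay above and 1 below (20.4% and 20.8% of genes), with 12 higher and 0 lower at that p (4.65% and 6.56% of genes). In memory-like cells 17 lay above and 4 below (19.5% and 19.9% of genes), with 8 higher and 0 lower (3.72% and 5.1% of genes). In cluster 2, 11 lay above and 3 below (20% and 21.1% of genes), with 2 higher and 0 lower (4.07% and 4.45% of genes).

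In cycling-like cells 26 of 33 members had a lower fitted level in C6M9, with a median log2 difference of -0.07, and both C6M9 libraries lay below both M9 libraries in 8 members and above in 2, where 22.6% and 23.3% of genes did so. At an unadjusted p under 0.05 there were 2 higher and 2 lower members, against 6.7% and 7.5% of genes. All 7 ER genes and all 3 mitochondrial genes were on the lower side, without a call, and Pdia6 and Hspa9 had unadjusted p-values of 0.0440 and 0.0414. Hspd1 had a difference of -0.19 ± 0.12 in this class, and 0.05 to 0.19 in effector-like, memory-like and interferon-like cells.

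**Figure D4:**
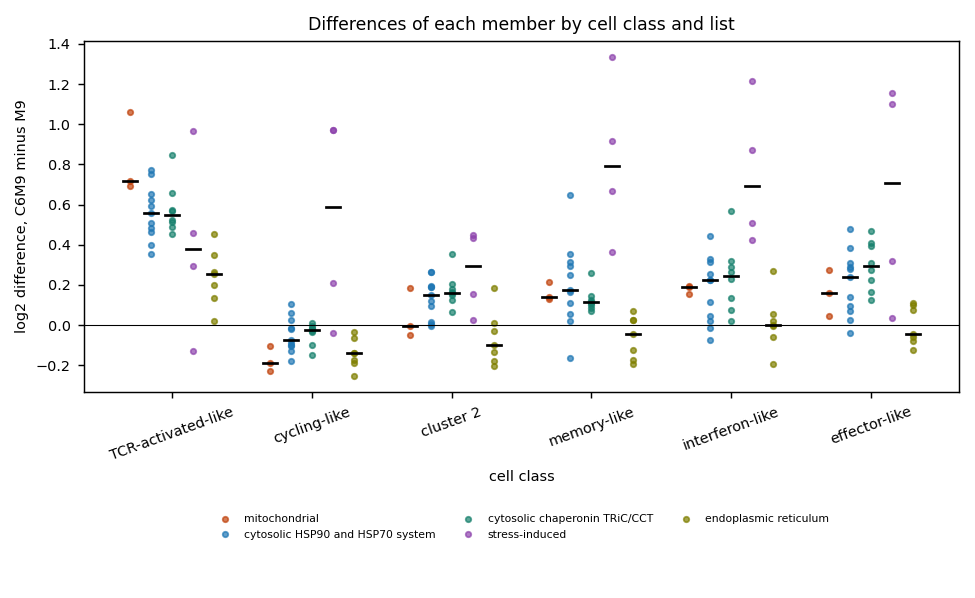
Log2 difference of C6M9 minus M9 (y axis) for each member, by cell class (x axis) and list (colour); each point is a gene and black bars are list medians. The mitochondrial, cytosolic and TRiC/CCT points lie above 0.3 in TCR-activated-like cells and near or below 0 in cycling-like cells, and the stress-induced medians lie above 0.2 in all 6 classes.

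Whether the group difference varied between classes was tested over the class sums with library and class in the model. It varied for 29 of 33 members at an adjusted p under 0.05 (edgeR), against 16.1% of 11015 genes. The strongest was Hspd1 (adjusted p = 1.84e-09), and those not called were Hspa14, Hspa1b, Pdia3 and Pdia4. With the TCR-activated-like sums left out, a setting added after the data had been seen, it varied for 7 of 33 members, against 4.77% of genes.

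The inducible HSP70 genes Hspa1a and Hspa1b differed most outside the TCR-activated-like class. In effector-like cells Hspa1a had 38.0 and 42.5 CPM in C6M9 against 17.1 and 21.2 CPM in M9, a log2 difference of 1.10 ± 0.18 (SE; adjusted p = 0.00181, edgeR). Hspa1b had 61.4 and 85.5 CPM in C6M9 against 27.4 and 41.1 CPM in M9, a difference of 1.15 ± 0.18 (adjusted p = 0.00149). Both calls held when any 1 library was left out. In memory-like cells Hspa1a had 38.0 and 56.0 CPM in C6M9 against 13.2 and 24.3 CPM in M9, a difference of 1.34 ± 0.24 that missed the threshold (adjusted p = 0.0515, edgeR). All 4 stress-induced genes had an unadjusted p under 0.05 on the higher side in memory-like and in interferon-like cells (3.72% and 4.65% of all genes, edgeR). Both C6M9 libraries lay above both M9 libraries in 4 of 6 classes for Hspa1a, 3 for Hspa1b, 5 for Hsph1 and 1 for Dnajb1. By class 19.5% to 27.6% of all genes did so.

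The libraries also differed within groups. Hspa1b was higher in replicate 2 than in replicate 1 in all 6 classes, in C6M9 and in M9 alike. In interferon-like cells it had 65.6 and 134 CPM in C6M9 against 15.4 and 96.4 CPM in M9, so that the groups overlapped. Dnajb1, which encodes the inducible J-domain partner of HSP70, was higher in replicate 2 of C6M9 and lower in replicate 2 of M9 in all 6 classes. The 22 listed immediate early and dissociation stress genes other than chaperones, of which 21 were in the files, summed to 1511 and 2268 CPM without TMM scaling in C6M9 and to 2645 and 1595 in M9, and their part in these values was not tested.

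**Figure D5:**
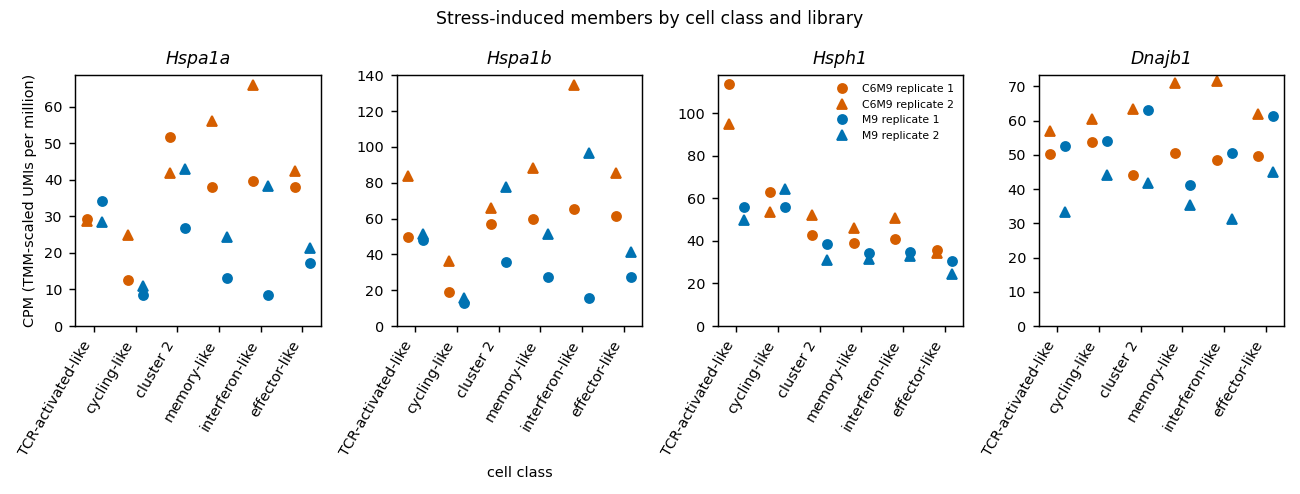
CPM (y axis, from 0) of Hspa1a, Hspa1b, Hsph1 and Dnajb1 in each cell class; colours mark the group, C6M9 left of M9, and shapes the replicate. Hspa1a in effector-like cells stands at 38.0 and 42.5 CPM in C6M9 and 17.1 and 21.2 CPM in M9, and Hspa1b is higher in replicate 2 in all 6 classes of both groups.

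Few cells carried a UMI of these genes once every cell had been thinned to 2000 UMIs, a step that left out 24 shallower T cells. For Hspa1a the share was 4.95% (4.19% to 5.81%, 95% exact binomial interval, counting error only) and 6.37% (5.27% to 7.63%) in C6M9, against 3.37% (2.84% to 3.97%) and 5.86% (4.598% to 7.35%) in M9. Unthinned, the shares were 17.8% and 21.9% in C6M9 against 10.4% and 21.4% in M9. The lowest was that of M9 replicate 1, which also had the lowest median UMI count. In that library the top 5% of cells held 81.4% of all Hspa1a UMIs, where they held 59.6% and 56.7% in C6M9 and 55.5% in M9 replicate 2. This measure rises as fewer cells carry a UMI. In thinned cells it was 100% and 85.3% in C6M9 and 100% and 88.2% in M9, with under 5% of cells carrying a UMI in both replicate 1 libraries. Because every cell type can express these genes, no cell type gave a background share. Among thinned cells with a Hspa1b UMI, 15.7% and 22.2% in C6M9 and 21.0% and 17.3% in M9 also had a Hspa1a UMI. Of the cells without a Hspa1b UMI 2.42% to 4.70% did. These are the near-copies whose UMIs may be split. The contrast was smaller for Hsph1, with a Hspa1a UMI in 6.55% and 7.14% (C6M9) and 3.49% and 8.08% (M9) of cells with a Hsph1 UMI. Of the cells without a Hsph1 UMI 3.36% to 6.30% had one.

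The pathway partners of these genes, from lists chosen with earlier results known, are read against the 1.59% of all genes called higher and 4.04% called lower over all T cells, and the 10.5% and 13.4% at an unadjusted p under 0.05. Of 22 other mitochondrial folding and import genes 0 were called in either direction, with 4 higher and 0 lower at an unadjusted p under 0.05 (edgeR). Of 36 tested other cytosolic chaperones and co-chaperones, Ppil1 was called higher and St13 and Hspa4l lower, counts near the share over all genes. St13, an HSP70-binding cochaperone, had 156 and 157 CPM in C6M9 against 219 and 235 CPM in M9, a log2 difference of -0.54 ± 0.08. Hspa4l, a relative of Hspa4, had 20.5 and 21.0 CPM in C6M9 against 30.8 and 28.2 CPM in M9. Of 13 tested prefoldin and TRiC partner genes 0 were called (3 higher and 0 lower at an unadjusted p under 0.05, edgeR), and of 35 other ER folding genes 0 (4 higher and 1 lower). Of 21 tested unfolded protein response and ER degradation genes Trib3 was called higher and Derl3 lower, both at under 4 CPM. Among the immediate early genes Egr1 was called lower. Of 10 CD8 T cell identity genes Cd44, on whose protein the cells were sorted, was called lower, with 66.0 and 67.8 CPM in C6M9 against 92.7 and 94.4 CPM in M9.

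In TCR-activated-like cells 10 of 22 other mitochondrial folding and import genes were called higher and 0 lower, as were 7 of 34 other cytosolic chaperones and 2 of 12 prefoldin and TRiC partners, against the 7.51% of all genes. Of 33 other ER folding genes 3 were called higher and 1 lower. Of 3 tested heat shock factor genes 1 was called higher, Hsf1, which is named here after its value was seen, at 0.49 on the log2 scale. Within the Xcl1-led and the Tnfrsf4-led cells 0 genes of these 5 lists were called (edgeR). For the mitochondrial partners 0 and 3 were higher and 0 lower at an unadjusted p under 0.05 there, and the median log2 difference was 0.02 and 0.18, beside 0.46 in the whole class. In the whole class 7.51% of all genes were called higher and 5.57% lower. The counts of the unfolded protein response and immediate early lists were near these shares. Of 19 tested unfolded protein response and ER degradation genes 1 was called higher and 1 lower. Of 20 tested immediate early genes 1 was called higher and 1 lower, with a median of -0.31. Of 10 CD8 T cell identity genes 0 were called higher and 2 lower.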

How the data were processed

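The deposited values are unnormalized UMI counts, 1 gene-by-barcode table per library, made with Cell Ranger 6.0.0 on mm10 per the submitters' processing notes; neither notes nor labels name the annotation release or the treatment of intronic reads. Barcodes passed (10324) with 500 or more genes, 1000 or more UMIs and no more than 10% of UMIs from mitochondrial genes, and 277 doublets (Scrublet, scanpy 1.11.5) and 124 B cell-like cells were left out. Clusters (Leiden resolution 0.6, seed 7) were made without chaperone genes and named when at least 3 of 10 leading genes were markers, a rule set after the clusters were seen. Library sums, for the T cells together and for each class, were filtered with filterByExpr, scaled with TMM and compared with edgeR 4.0.16 (quasi-likelihood, trended dispersion, two-sided, Benjamini-Hochberg over all genes). The test was tried on simulated data. Over all T cells it recovered 8% of genes changed 1.25-fold, 46% changed 1.5-fold and 84% changed 2-fold, and 8.94% of its calls were false. In TCR-activated-like cells these values were 2%, 26%, 78% and 4.04%, and in interferon-like cells 4%, 34%, 80% and 7.14%. All 33 members are named; of other lists, the called genes of all T cells. Members and lists were chosen with earlier results of these data known. Alternatives included DESeq2 1.42.0, other filters and clusterings, and leaving out each library. Like-numbered libraries were not treated as pairs: their deviations from group means correlated at -0.06 over genes.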

Additional observations from a re-analysis of the deposited data

Results flagged for a closer look

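The difference between C6M9 and M9 varied between the 6 cell classes for 29 of the 33 members (edgeR test of the product of class and group). It varied for 16.1% of 11015 genes, and the members are marked here for a closer look. With the TCR-activated-like sums left out it varied for 7 members, against 4.77% of genes. Hspd1 shows the range, with log2 differences of 1.06 in TCR-activated-like, -0.19 in cycling-like and -0.01 in cluster 2 cells. Within the Xcl1-led and Tnfrsf4-led sub-clusters of the TCR-activated-like class Hspd1 differed by 0.18 and -0.01, in that order. With 2 libraries per group no library could be tested as standing apart from its group.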

How the results depend on the processing

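Over all T cells 1 member was called higher, with 5 under no filter on low counts, 5 under the DESeq2 test, 3 without cycling-like cells, 2 with the replicate block, 0 with at most 5% mitochondrial UMIs, 0 with cells thinned to 2000 UMIs, and 0 to 4 with 1 library left out (0 without C6M9 replicate 2, 4 without M9 replicate 1). Over all genes the number called higher also moved, from 217 of 13654 to 812 of 20199 with no filter and 499 of 12595 under the DESeq2 test. It was 436 of 12933 without cycling-like cells and 269 of 13654 with the replicate block. With at most 5% mitochondrial UMIs it was 144 of 13432, and in thinned cells 158 of 10126. Members near 0 changed direction. The log2 difference of Pdia4 became 0.0011 with DESeq2 size factors, 0.0015 with no filter, 0.0011 with the DESeq2 test, 0.010 with at most 5% mitochondrial UMIs and 0.013 without cycling-like cells. Hspa4 became -0.0043 with at most 5% mitochondrial UMIs and -0.13 in thinned cells, where Pdia6 was -0.042 and Canx -0.014. With 1 library left out Hspa4 ran between -0.096 and 0.13, Hspa5 between -0.21 and 0.19, Pdia4 between -0.055 and 0.036, Pdia6 between -0.064 and 0.14, Calr between -0.027 and 0.097 and Canx between -0.035 and 0.15.

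In TCR-activated-like cells 23 members were called, with 5 when chaperone genes were left in the clustering, 0 within the Xcl1-led and 0 within the Tnfrsf4-led cells, and 10 to 25 with 1 library left out. With chaperone genes left in, the class was matched to clusters of which 92.3% and 61.8% of cells were in the main class. In that setting Hspa5 was -0.022, Pdia4 -0.12 and Calr -0.010. Pdia4 was -0.0028 with no filter and ran between -0.042 and 0.081 with 1 library left out, Hspa1a between -0.24 and 0.023. Hspd1 was -0.0097 among Tnfrsf4-led cells.

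Effector-like cells had 2 calls, 7 with the replicate block and 2 to 10 with 1 library left out (10 without M9 replicate 1). Interferon-like cells had 1 call, 3 with no filter, 3 with the replicate block, 0 at resolution 0.4 and 0 to 4 with 1 library left out. Memory-like cells had 0 calls, 1 with DESeq2 size factors, 4 with no filter, 2 with the replicate block, 2 at resolution 0.4 and 1 to 5 with 1 library left out. Cycling-like cells had 0 calls, 2 with no filter and 0 to 2 with 1 library left out, and cluster 2 had 0 calls and 0 to 2 with 1 library left out. In cluster 2 Hspd1 became 0.0062 with the replicate block, 0.083 at resolution 0.4 and 0.042 with chaperone genes left in, and ran between -0.13 and 0.12 with 1 library left out, Hspa1b between -0.35 and 0.78 and Dnajb1 between -0.27 and 0.35. Cct6a ran between -0.095 and 0.025 and Hsph1 between -0.16 and 0.070 in cycling-like cells, and Hspd1 between -0.040 and 0.20 and Dnajb1 between -0.14 and 0.33 in effector-like cells. Of the called values, that of Hspd1 changed sign among Tnfrsf4-led cells, as given above. Those of Hspa9 (-0.11) and Cct3 (-0.012) changed sign among Xcl1-led cells, and no other did under these settings. For the settings within classes, the sub-clusters aside, the share of all genes called is not given here. Whether the moves in the counts are particular to the members was therefore not tested. The causes were not tested.

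The difference between classes was called for 29 members, also without cycling-like sums, and for 7 without TCR-activated-like sums. Over all genes it was called for 1775 of 11015, 1377 of 10537 and 520 of 10909, in that order. Without thinning the groups' mean shares of cells with a UMI differed by 3.93 (Hspa1a), 7.04 (Hspa1b), 8.46 (Hsph1) and 7.13 (Dnajb1) percentage points, against 1.05, 1.90, 0.433 and 1.16 points in that order with thinning. A library left alone in its group is assumed to vary like the other group.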
